A study of Homo sapiens with 32 samples.

Results

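The 26S proteasome is the protease that degrades ubiquitin-tagged proteins, and 40 genes that encode its constitutive subunits or help to assemble it were followed here through 4 treatments of MM.1S cells, a human multiple myeloma line. The 40 were chosen by symbol, out of 24249 gene IDs in the deposited expression table: 7 alpha subunits (PSMA1 to PSMA7) and 7 constitutive beta subunits (PSMB1 to PSMB7) of the 20S core, 6 ATPases of the 19S cap (PSMC1 to PSMC6), 15 non-ATPase genes of the cap (PSMD1 to PSMD14 and ADRM1) and 5 assembly factors (PSMG1 to PSMG4 and POMP). All 40 were in the table and passed the filter on low values. Cells received a pulse of 1 h with either the vehicle DMSO or carfilzomib (Cfz), a drug that binds covalently to the active site of PSMB5, and then 12 h with either DMSO or 10 µM all-trans retinoic acid (ATRA), the ligand of the nuclear retinoic acid receptors. This gave DMSO (n = 3 libraries), ATRA (n = 3), Cfz followed by DMSO (called Cfz, n = 1) and Cfz followed by ATRA (called ATRA+Cfz, n = 1). For carfilzomib the sources used here give no dose. MM.1S is 1 established line, and all 4 groups come from it.

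The 20S core is a barrel of stacked alpha and beta rings whose proteolytic sites face inward, and the 19S cap binds ubiquitin chains, removes them and threads the substrate in with its ring of ATPases. Dedicated chaperones put the rings together and leave or are degraded when the particle is complete. When proteasome activity falls, mammalian cells process the membrane-bound transcription factor NFE2L1 to its active form, and with small MAF proteins it binds antioxidant response elements near proteasome genes. Myeloma cells secrete much protein and are known for their sensitivity to proteasome inhibitors.

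Promoter windows from RefSeq (GRCh38.p14, 250 bases before to 50 bases after a gene start) were matched by symbol for 34 of the 40 genes, and 6 had no window in the table used here. A core of the antioxidant response element, TGACNNNGC on either strand, was present in a window of 12 of these 34 genes (35.3%), against 16.1% of 27305 genes. The CCAAT box, searched separately on both strands so that matches of the 2 motifs may overlap, was present for 18 of 34 (52.9%) against 39.7% of all genes. A match describes letters only. Stretches of 60 bases around the match are shown for 4 genes whose transcript rose after carfilzomib and for 2 assembly genes whose transcript did not, to show that the same core stands before both kinds. All run 5′ to 3′ on the gene's strand, end before the gene start, and have the match in capitals.
PSMB3 (chr17:38752612-38752671, plus strand): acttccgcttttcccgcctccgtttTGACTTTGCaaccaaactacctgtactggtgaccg
PSMD3 (chr17:39980745-39980804, plus strand): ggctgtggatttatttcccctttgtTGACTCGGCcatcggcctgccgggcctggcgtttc
PSMD12 (chr17:67366708-67366767, minus strand): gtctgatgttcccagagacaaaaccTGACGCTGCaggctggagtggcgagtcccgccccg
ADRM1 (chr20:62302734-62302793, plus strand): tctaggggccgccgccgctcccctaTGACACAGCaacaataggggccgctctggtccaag
PSMD5 (chr9:120843022-120843081, minus strand): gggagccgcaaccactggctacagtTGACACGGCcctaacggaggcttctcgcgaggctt
PSMG2 (chr18:12658674-12658733, plus strand): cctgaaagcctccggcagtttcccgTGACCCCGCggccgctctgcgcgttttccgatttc

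Depth was 14136937 to 17155331 reads per library, and 3 reads equal 0.175 to 0.212 FPM (fragments scaled to the same total in every library), well under every value of the 40 genes. DMSO 3 stood apart from the other controls in its share of mitochondrially encoded reads, 5.85% against 4.12% and 4.09%. This share was 3.67% to 3.89% with ATRA, 5.43% with Cfz and 5.72% with ATRA+Cfz, so it was also high in both libraries with carfilzomib. Its part in the differences from DMSO was not tested. The summed proteasome level of DMSO 3 was 5131 FPM, against 5163 and 5145 FPM in DMSO 1 and DMSO 2. All 8 plasma cell markers looked up were detected, and their sum moved with ATRA: 3946 to 4450 FPM with DMSO, 7123 to 7184 FPM with ATRA, 3999 FPM with Cfz and 6230 FPM with ATRA+Cfz. With ATRA 6 of the 8 were called higher and 2 lower (calls as defined below), and with Cfz 0 and 5. Of all genes tested, 21.3% were called higher and 27.4% lower with ATRA, and 7.94% and 17% with Cfz. The ratio of ATRA to DMSO was 6.11 for CD38, 2.96 for XBP1, 2.91 for SDC1 and 0.54 for SLAMF7. Epithelial markers (3 of 4 in the table) summed to 0.524 to 1.27 FPM with DMSO, 0.565 to 1.08 FPM with ATRA, 3.54 FPM with Cfz and 1.98 FPM with ATRA+Cfz, of which EPCAM made up 3.34 FPM with Cfz. Myeloid markers (3 of 4) summed to 22.5 FPM with Cfz, nearly all of it CD68 (22.0 FPM), and to 8.83 to 12.8 FPM in the other libraries, and CD14 was at 0 in 3 libraries. Stromal markers (3 of 4) summed to 0.602 to 2.55 FPM, the latter with Cfz. Of the T and NK markers (1 of 4), the T cell gene CD3E lay between 0.214 and 1.54 FPM. Whether any of these moved the proteasome values was not tested.

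Both treatments raised most proteasome transcripts, carfilzomib by more than ATRA, and the combination reached about the level of carfilzomib alone. The summed level of the 40 genes was 5163, 5145 and 5131 FPM with DMSO, 6640, 6616 and 6681 FPM with ATRA, 8807 FPM with Cfz and 8954 FPM with ATRA+Cfz. Every ATRA sum lay above every DMSO sum, and both carfilzomib libraries lay above the ATRA sums. Cfz and ATRA+Cfz are 1 library each, so the spread of their sums is not known. Relative to the DMSO mean of 5146 ± 16.1 FPM (SD, n = 3), the sum was 1.29 times as high with ATRA, 1.71 times with Cfz and 1.74 times with ATRA+Cfz, where the product of the 2 separate ratios is 2.21. FPM are shares of reads and are not divided by transcript length, so sums weigh long and abundant transcripts more. In bulk RNA, more RNA per cell and more cells of one state cannot be told apart.

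**Figure D1:**
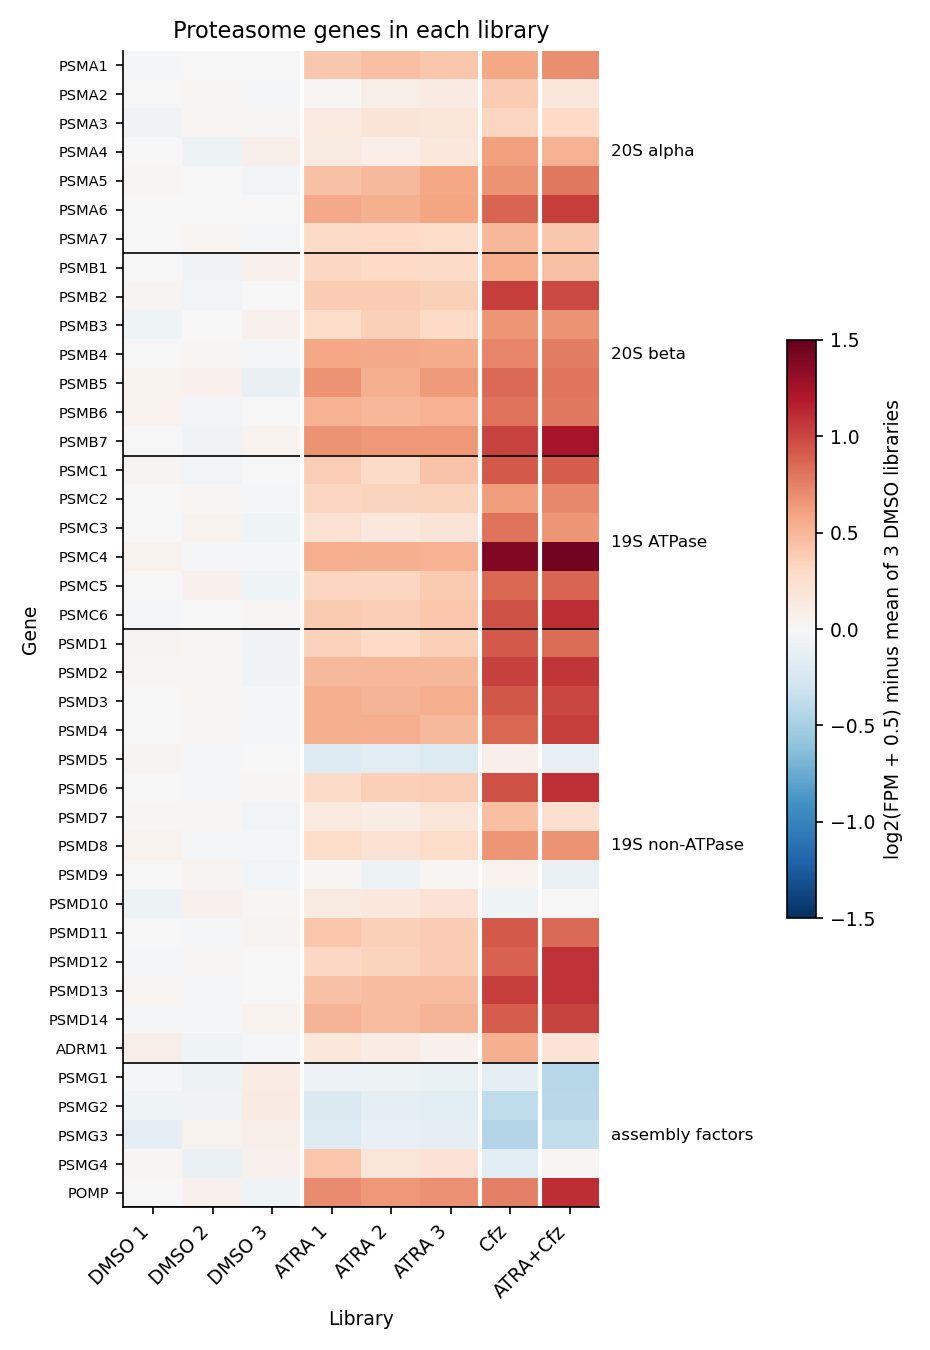
Level of each of the 40 genes (rows, grouped by class) in each of the 8 libraries (columns), as log2(FPM + 0.5) minus the mean of the 3 DMSO libraries. Red is higher and blue lower than DMSO; PSMC4 has the deepest red in both libraries with carfilzomib (1.39 and 1.45), and PSMD5, PSMD9, PSMD10 and PSMG1 to PSMG4 are pale or blue there.

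A gene was called at a limma Benjamini-Hochberg adjusted p under 0.05 over 15827 genes, on log2(FPM + 0.5). Cfz and ATRA+Cfz are single libraries whose spread was taken to be that of the replicated groups, so no replicate checks a difference that involves them. With ATRA, 33 of the 40 rose and 2 fell, where 21.3% of all genes tested were called higher and 27.4% lower, and their median log2 change was 0.34 against -0.03 over all genes. With Cfz, 33 rose and 2 fell, where 7.94% of all genes were called higher and 17% lower, with a median of 0.74 against -0.08. With ATRA+Cfz, 33 rose and 3 fell, where 20% were called higher and 30.5% lower, with a median of 0.78 against -0.05. In all, 35 of the 40 genes had a larger log2 change with Cfz than with ATRA. The share of all genes with this order was not computed. The comparisons with DMSO share the same 3 control libraries. Without DMSO 3, the counts were 33 higher and 1 lower with ATRA, 33 and 2 with Cfz, and 33 and 4 with ATRA+Cfz. That fit called 8221, 5449 and 8785 of all genes in either direction.

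In each of the 4 subunit classes both carfilzomib sums lay above the ATRA sums, and these above the DMSO sums. The 20S beta genes summed to 894 ± 7.59 FPM with DMSO (SD, n = 3), and stood at 1.40 times this with ATRA, 1.78 times with Cfz and 1.81 times with ATRA+Cfz. The ATPase genes stood at 1.27, 1.88 and 1.91 times their DMSO mean of 717 ± 15.1 FPM, and the non-ATPase genes at 1.31, 1.81 and 1.86 times theirs of 2228 ± 22.2 FPM. The alpha genes stood at 1.22, 1.47 and 1.46 times their DMSO mean of 1081 ± 9.00 FPM. For the 5 assembly factors, at 226 ± 9.04 FPM with DMSO, the ratios were 1.11, 1.06 and 1.12. This sum joins opposite changes. With Cfz, POMP stood at 1.69 times its DMSO mean, and PSMG1, PSMG2, PSMG3 and PSMG4 at 0.91, 0.77, 0.73 and 0.88 times theirs.

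**Figure D2:**
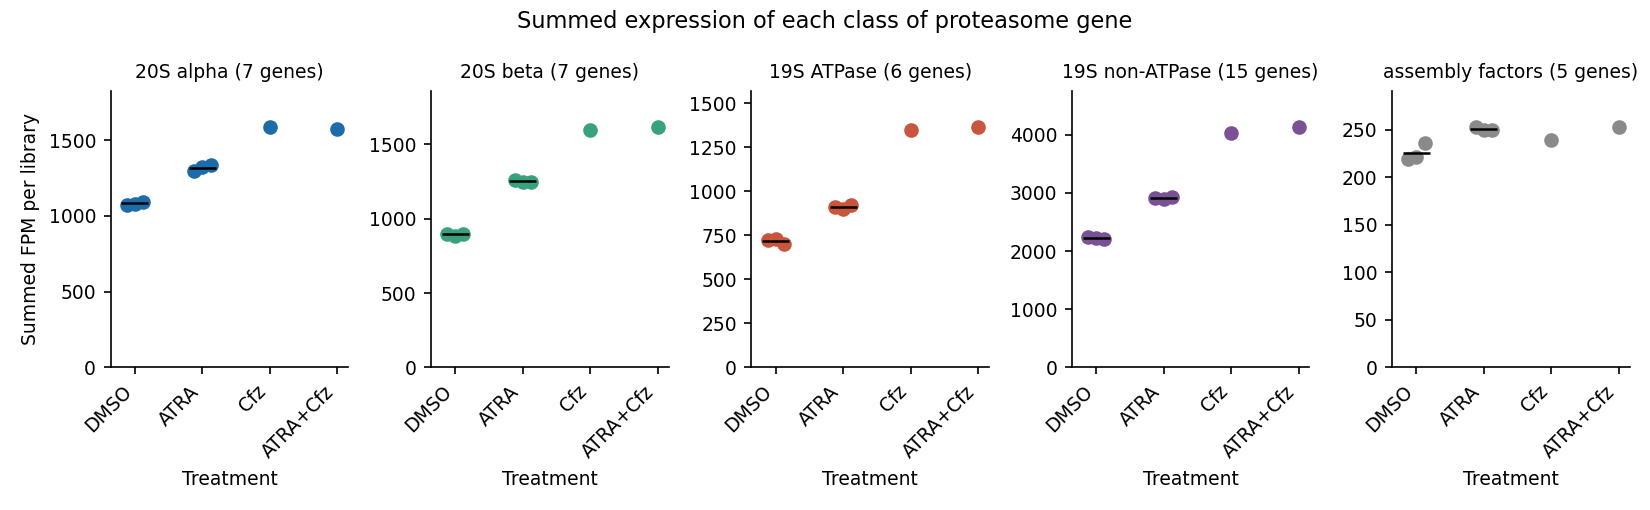
Summed FPM of each class per library (linear axes from 0, a separate scale for each class), with a bar at the mean of the 3 DMSO and the 3 ATRA libraries. In the 4 subunit classes every ATRA library lies above every DMSO library and both carfilzomib libraries lie higher still. In the assembly factors all 8 values lie between 220 and 254 FPM, a sum in which POMP rose and PSMG2 and PSMG3 fell with Cfz.

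The 20S beta ring carries the catalytic sites, and all 7 of its genes rose with ATRA (log2 change 0.30 to 0.66, median 0.52) and with Cfz (0.54 to 1.04, median 0.81). PSMB5, the chymotrypsin-like subunit that carfilzomib binds, was at 30.5, 30.8 and 27.2 FPM with DMSO, 47.5, 43.0 and 46.0 FPM with ATRA, 53.5 FPM with Cfz and 51.9 FPM with ATRA+Cfz. All 5 treated libraries lay above the 3 controls, and the carfilzomib pair above the ATRA libraries. Its log2 change was 0.62 ± 0.06 (SE) with ATRA (limma adjusted p = 6.6e-06) and 0.85 ± 0.09 with Cfz (adjusted p = 6.0e-05). PSMB6, the caspase-like subunit, stood at 95.3, 88.7 and 91.0 FPM with DMSO, 132, 130 and 132 FPM with ATRA, 161 FPM with Cfz and 158 FPM with ATRA+Cfz. Its groups were ordered like those of PSMB5, with changes of 0.52 ± 0.04 for ATRA and 0.81 ± 0.05 for Cfz. PSMB7, the trypsin-like subunit, read 108, 104 and 112 FPM with DMSO, 172, 170 and 169 FPM with ATRA, 218 FPM with Cfz and 255 FPM with ATRA+Cfz. Here the combination lay above carfilzomib alone (log2 difference 0.23 ± 0.06 SE, limma adjusted p = 0.0169).

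Among the beta genes without proteolytic activity, PSMB2 changed most with Cfz. It read 209, 198 and 204 FPM with DMSO, 264, 264 and 260 FPM with ATRA, 419 FPM with Cfz and 406 FPM with ATRA+Cfz, a log2 change of 1.04 ± 0.05 (SE) for Cfz and 0.37 ± 0.03 for ATRA. PSMB1 changed least with Cfz: 79.8, 76.7 and 83.2 FPM with DMSO, 99.4, 97.9 and 97.8 FPM with ATRA, 117 FPM with Cfz and 108 FPM with ATRA+Cfz. PSMB4 was at 284, 291 and 282 FPM with DMSO, 428, 423 and 421 FPM with ATRA, 475 FPM with Cfz and 487 FPM with ATRA+Cfz. It rose by 0.57 ± 0.03 with ATRA and 0.73 ± 0.04 with Cfz. PSMB3 rose by 0.31 with ATRA and 0.66 with Cfz.

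The alpha genes, whose products form the gate of the core, rose in 6 of 7 cases with ATRA (median 0.29) and in 7 of 7 with Cfz (median 0.58). PSMA6 changed most with Cfz, at 85.4, 84.7 and 85.4 FPM with DMSO, 127, 123 and 128 FPM with ATRA, 156 FPM with Cfz and 176 FPM with ATRA+Cfz. That is 0.87 ± 0.05 (SE) with Cfz and 0.56 ± 0.04 with ATRA. PSMA3 changed least with Cfz: 100, 106 and 105 FPM with DMSO, 115, 119 and 118 FPM with ATRA, 130 FPM with Cfz and 128 FPM with ATRA+Cfz, a change of 0.32 ± 0.05 (limma adjusted p = 1.4e-03). PSMA1 (0.42 and 0.58), PSMA5 (0.50 and 0.67) and PSMA7 (0.29 and 0.50) rose with ATRA and Cfz. PSMA2 was not called with ATRA (0.08 ± 0.04, limma adjusted p = 0.111, called by edgeR and with median-ratio scaling), and its ATRA and DMSO libraries overlapped, but it rose with Cfz (0.38 ± 0.05). PSMA4 rose by 0.13 ± 0.04 with ATRA (limma adjusted p = 0.0236), a call that was lost without DMSO 1, DMSO 2, ATRA 1 or ATRA 3 (adjusted p up to 0.102), and by 0.62 ± 0.06 with Cfz.

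All 6 ATPase genes rose with ATRA (0.19 to 0.53, median 0.35) and with Cfz (0.63 to 1.39, median 0.89). PSMC4 had the largest change of the 40 genes with Cfz. It stood at 104, 97.7 and 98.5 FPM with DMSO, 146, 146 and 144 FPM with ATRA, 263 FPM with Cfz and 274 FPM with ATRA+Cfz, a log2 change of 0.53 ± 0.04 (SE) for ATRA, 1.39 ± 0.05 for Cfz (limma adjusted p = 7.5e-08) and 1.45 ± 0.05 for the combination. PSMC2 changed least with Cfz, at 156, 161 and 154 FPM with DMSO, 196, 198 and 198 FPM with ATRA, 243 FPM with Cfz and 260 FPM with ATRA+Cfz (0.33 with ATRA, 0.63 with Cfz). For both genes every ATRA library lay above every DMSO library, and both carfilzomib libraries lay above the ATRA libraries. PSMC1 (0.36 with ATRA and 0.91 with Cfz), PSMC3 (0.19 and 0.82), PSMC5 (0.34 and 0.86) and PSMC6 (0.40 and 0.96) also rose. PSMC1 shares sequence with a pseudogene that is listed with up to 12.4 FPM, so its values are uncertain to that extent.

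Of the 15 non-ATPase genes, 12 rose and 1 fell with ATRA (median 0.34), and 12 rose and 0 fell with Cfz (median 0.88). The 12 that rose with Cfz are the structural subunits, and the 3 that did not are PSMD5, PSMD9 and PSMD10, chaperones that bring ATPases together and are absent from the finished cap. PSMD4, a ubiquitin receptor, read 212, 214 and 208 FPM with DMSO, 307, 310 and 297 FPM with ATRA, 385 FPM with Cfz and 434 FPM with ATRA+Cfz (0.53 ± 0.03 SE for ATRA, 0.87 ± 0.05 for Cfz). PSMD14, the deubiquitinase that releases chains from the substrate, was at 166, 166 and 177 FPM with DMSO, 241, 234 and 242 FPM with ATRA, 319 FPM with Cfz and 343 FPM with ATRA+Cfz (0.49 ± 0.04 and 0.91 ± 0.05). In both genes all treated libraries lay above the controls. PSMD13, a lid subunit, had the largest Cfz change of this class, 1.03 ± 0.05. It read 135, 130 and 132 FPM with DMSO, 179, 182 and 182 FPM with ATRA, 271 FPM with Cfz and 281 FPM with ATRA+Cfz.

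ADRM1, another ubiquitin receptor, was called with Cfz but not with ATRA. It was at 98.7, 88.8 and 92.1 FPM with DMSO, 104, 100 and 97.3 FPM with ATRA, 135 FPM with Cfz and 107 FPM with ATRA+Cfz. The DMSO and ATRA libraries overlapped (0.11 ± 0.05 SE, limma adjusted p = 0.0732, called by edgeR and with median-ratio scaling), the Cfz library lay above all others (0.53 ± 0.07, adjusted p = 2.2e-04), and ATRA+Cfz lay below Cfz (-0.33 ± 0.08, adjusted p = 9.2e-03). Its rise with ATRA+Cfz against DMSO (0.20 ± 0.07, limma adjusted p = 0.0246) was not called without DMSO 2 (adjusted p = 0.0623). The scaffold subunits PSMD1 (0.34 with ATRA and 0.92 with Cfz) and PSMD2 (0.50 and 1.03) rose. So did the other structural subunits PSMD3 (0.53 and 0.93), PSMD6 (0.34 and 0.95), PSMD7 (0.15 and 0.45), PSMD8 (0.26 and 0.66), PSMD11 (0.38 and 0.92) and PSMD12 (0.34 and 0.88).

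None of the 3 base chaperones was called with Cfz. PSMD5 fell with ATRA, from 72.2, 69.0 and 69.9 FPM with DMSO to 61.6, 62.3 and 61.1 FPM (-0.19 ± 0.04 SE, limma adjusted p = 2.1e-03), and read 74.3 FPM with Cfz and 64.5 FPM with ATRA+Cfz. The ATRA libraries lay below all controls, though DESeq2 did not call the fall (adjusted p = 0.0861), and the change with Cfz was 0.08 ± 0.06 (adjusted p = 0.364). PSMD9 was at 24.1, 24.6 and 23.2 FPM with DMSO, 24.4, 22.7 and 24.6 FPM with ATRA, 25.0 FPM with Cfz and 22.3 FPM with ATRA+Cfz, and was called in none of the comparisons. PSMD10, also known as gankyrin, read 48.3, 53.4 and 51.9 FPM with DMSO, 56.2, 57.1 and 59.7 FPM with ATRA, 48.7 FPM with Cfz and 51.1 FPM with ATRA+Cfz. Its rise with ATRA (0.17 ± 0.05, limma adjusted p = 0.0151) was not called without DMSO 1 or ATRA 3, and the Cfz library lay among the controls (-0.07 ± 0.07, adjusted p = 0.527).

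**Figure D3:**
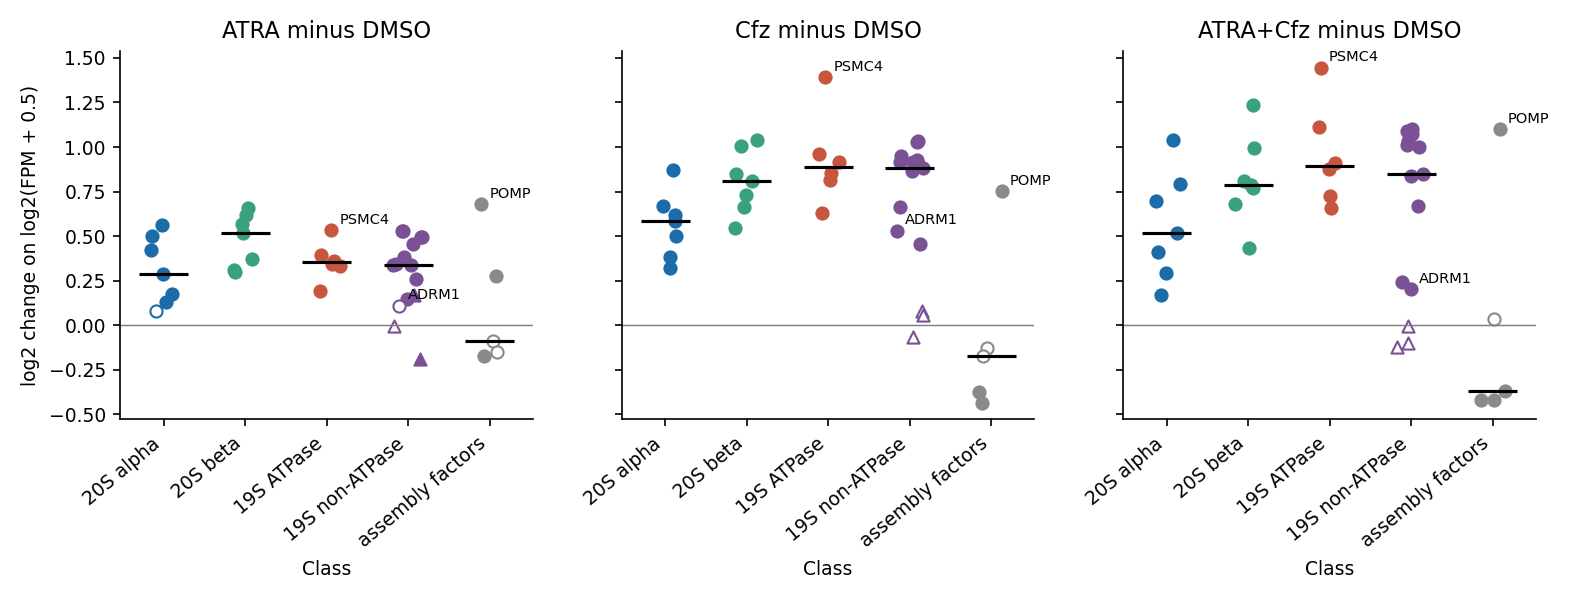
log2 change on the log2(FPM + 0.5) scale for each gene, by class, in the 3 comparisons with DMSO; filled symbols were called (limma adjusted p under 0.05), open ones were not, triangles are PSMD5, PSMD9 and PSMD10, and bars are class medians. With Cfz every structural subunit lies above 0.32, while the triangles and 4 of the 5 assembly factors lie between -0.44 and 0.08.

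Of the 5 assembly factors of the core, 1 rose and 2 fell with Cfz. POMP, which escorts the beta ring and is degraded when the core closes, was at 57.4, 60.5 and 55.4 FPM with DMSO, 94.8, 91.0 and 93.0 FPM with ATRA, 97.5 FPM with Cfz and 125 FPM with ATRA+Cfz. Its change with ATRA, 0.68 ± 0.04 (SE, limma adjusted p = 1.8e-07), was the largest of the 40 genes. The Cfz library lay just above the ATRA libraries (0.75 ± 0.06), and the combination was higher than either (1.10 ± 0.06 against DMSO). PSMG3, which pairs with PSMG4 in building the alpha ring, read 18.3, 20.9 and 21.3 FPM with DMSO, 17.6, 18.4 and 18.3 FPM with ATRA, 14.8 FPM with Cfz and 15.5 FPM with ATRA+Cfz. The ATRA and DMSO libraries overlapped, while both carfilzomib libraries lay below all others (-0.44 ± 0.11 with Cfz, limma adjusted p = 0.0127). PSMG2, the partner of PSMG1, fell by 0.17 ± 0.06 with ATRA (limma adjusted p = 0.0289, not called without DMSO 3, ATRA 1 or ATRA 3, by edgeR, by DESeq2 or with median-ratio scaling) and by 0.38 ± 0.08 with Cfz (adjusted p = 6.6e-03). The falls of PSMG2 and PSMG3 with Cfz were not called by DESeq2, and that of PSMG3 with ATRA+Cfz by neither edgeR nor DESeq2.

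PSMG1 stood at 0.94 times its DMSO mean with ATRA and 0.91 times with Cfz, neither of which was called, and fell with ATRA+Cfz (-0.42 ± 0.07 SE, limma adjusted p = 3.8e-04). Its lanes differed by more than sampling noise in ATRA 3 (chi-square adjusted p = 0.0397, the smallest of its 8 libraries), so its values are less certain. This flag is marginal, as lanes of every library varied a little beyond sampling (chi-square per degree of freedom 1.21 to 1.26). PSMG4 rose with ATRA (0.28 ± 0.09, limma adjusted p = 0.0251), a call lost without DMSO 2, without ATRA 1 and by DESeq2, and read -0.17 ± 0.13 with Cfz (adjusted p = 0.363). With the chaperones PSMD5, PSMD9, PSMD10 and PSMG1 to PSMG4 set aside together with POMP, 30 of the 32 remaining subunits rose and 0 fell with ATRA (0.08 to 0.66), and 32 rose with Cfz (0.32 to 1.39, median 0.85). Of the 7 chaperones other than POMP, 2 rose and 2 fell with ATRA, and 0 rose and 2 fell with Cfz (-0.44 to 0.08, median -0.13). Counts this small are not set apart from the shares of all genes, 21.3% higher and 27.4% lower with ATRA and 7.94% and 17% with Cfz. This division by function was made knowing the earlier results, and the difference between its sides was not tested.

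All 3 ATRA libraries lay above all 3 DMSO libraries for 33 of the 40 genes and below them for PSMD5, PSMG1 and PSMG2, against 25.5% and 31.1% of all genes tested. The Cfz library lay above all 3 DMSO libraries for 35 genes and below them for PSMG1, PSMG2, PSMG3 and PSMG4, against 25.3% and 46.4% of all genes.

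**Figure D4:**
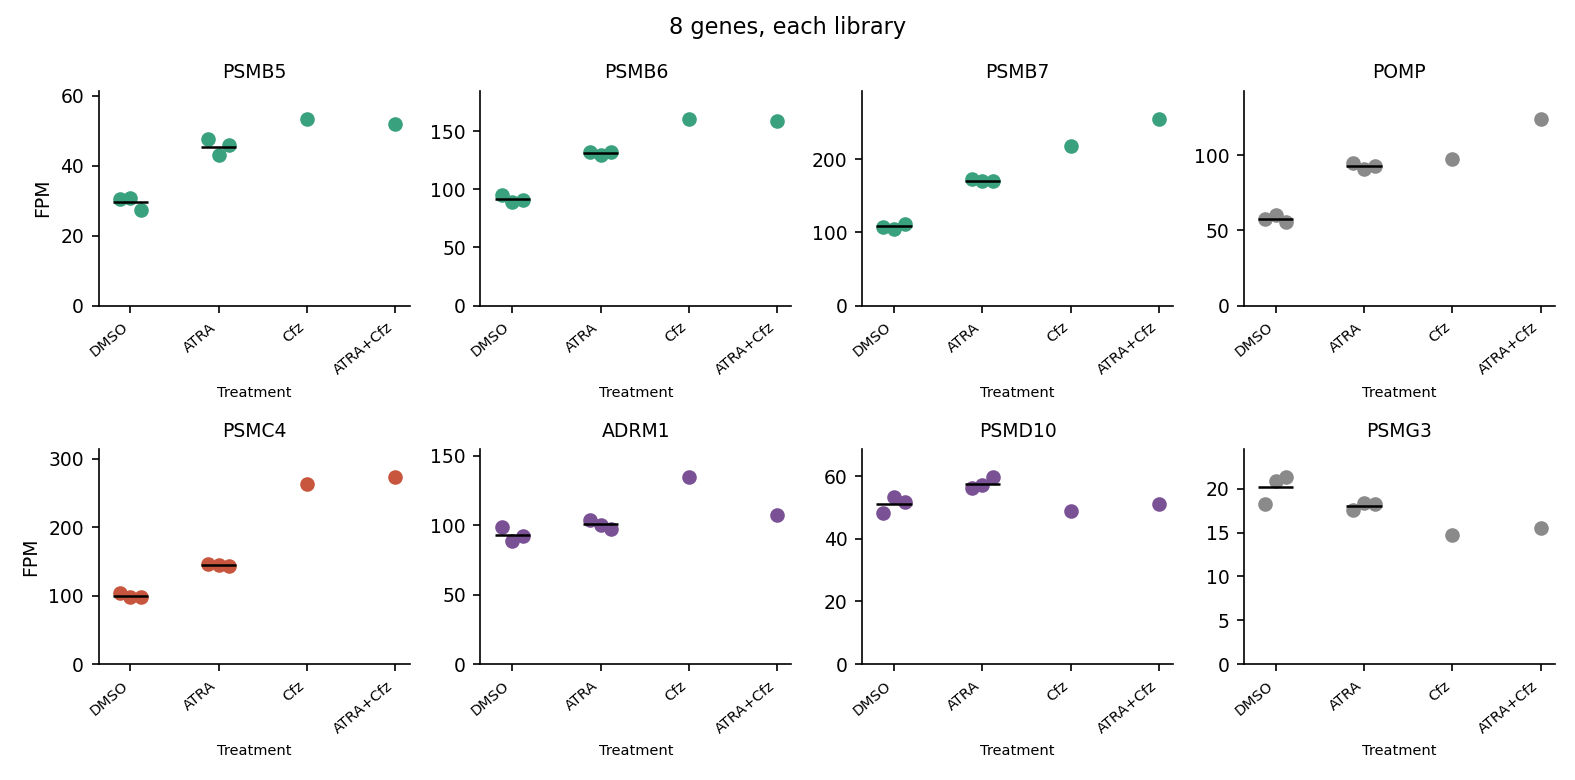
FPM of 8 genes in each library (linear axes from 0), with bars at the means of the 3 DMSO and the 3 ATRA libraries. PSMB5, PSMB6, PSMB7, POMP and PSMC4 rise from DMSO to ATRA to Cfz; ADRM1 is high with Cfz alone (135 FPM), PSMD10 lies between 48.3 and 59.7 FPM throughout, and PSMG3 is lowest with Cfz (14.8 FPM).

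Whether ATRA still raised these genes after a carfilzomib pulse was read from ATRA+Cfz against Cfz, a comparison of 1 library with 1. Here 4 of the 40 genes were called higher and 5 lower, where 12.8% of all genes were called higher and 17.6% lower, and the median log2 difference was 0.02, against -0.0039 over all genes. Higher were POMP (0.35 ± 0.08 SE, limma adjusted p = 4.4e-03), PSMB7 (0.23), PSMD12 (0.20 ± 0.06, adjusted p = 0.0238) and PSMD4 (0.17 ± 0.06, adjusted p = 0.0426). Lower were ADRM1 (-0.33), PSMG1 (-0.29 ± 0.09, limma adjusted p = 0.0245), PSMA2 (-0.21 ± 0.06), PSMD7 (-0.21 ± 0.07) and PSMD5 (-0.20 ± 0.07). The calls of PSMD4, PSMD5, PSMD7 and PSMA2 were lost when 1 or more of the replicated libraries were left out. Without DMSO 3 the count was 9 higher and 6 lower, where 6284 of the 15827 genes were called in either direction. edgeR called 7 higher and 1 lower, and DESeq2 2 and 1, where they called 4699 and 3118 of all genes. The ATRA effect without the pulse (ATRA minus DMSO) and after it (ATRA+Cfz minus Cfz) rest on different libraries. It was smaller in size after the pulse for 34 of the 40 genes and of the same sign for 25. Pearson's r was 0.63 and Spearman's rho 0.62 across the 40 genes, which are not independent replicates. The same values over all genes were not computed, so these are not shown to be particular to the proteasome genes.

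Carfilzomib still raised the proteasome genes in cells given ATRA, by less. In ATRA+Cfz against ATRA, 26 genes were called higher and 2 lower, where 10.6% of all genes were called higher and 20.2% lower, with a median log2 difference of 0.39 against 0.74 for Cfz against DMSO. PSMC4 again had the largest difference (0.91 ± 0.05 SE, limma adjusted p = 1.5e-06), followed by PSMD6 (0.76 ± 0.05), PSMD12 (0.74 ± 0.05) and PSMC6 (0.72 ± 0.05). PSMB5 was not called (0.19 ± 0.09, limma adjusted p = 0.124), and neither were PSMA2, PSMA3, PSMA7, PSMB1, PSMD7 and ADRM1 among the structural subunits. edgeR called 30 higher, among them PSMB5 (adjusted p = 0.0478), PSMA3, PSMA7 and PSMB1, where it called 4478 of all genes in either direction. The ATRA+Cfz library lay above all 3 ATRA libraries for 34 genes and below them for PSMD9, PSMD10 and PSMG1 to PSMG4, and 33.3% and 44.9% of all genes lay above and below. PSMG1 (-0.33 ± 0.07, limma adjusted p = 4.2e-03) and PSMG2 (-0.25 ± 0.08, adjusted p = 0.0411) were the 2 called lower, the latter not without any 1 of the ATRA libraries. Without DMSO 3, 30 were called higher, among them PSMB5 (limma adjusted p = 0.0307), PSMA3, PSMA7 and PSMB1, and 3 lower. That fit called 6392 of all genes in either direction. The Cfz effects without and with ATRA, again from different libraries, had the same sign for 39 of the 40 genes. Across these genes r was 0.93 and rho 0.94, and the effect was smaller with ATRA for 36. Here too the values over all genes were not computed.

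**Figure D5:**
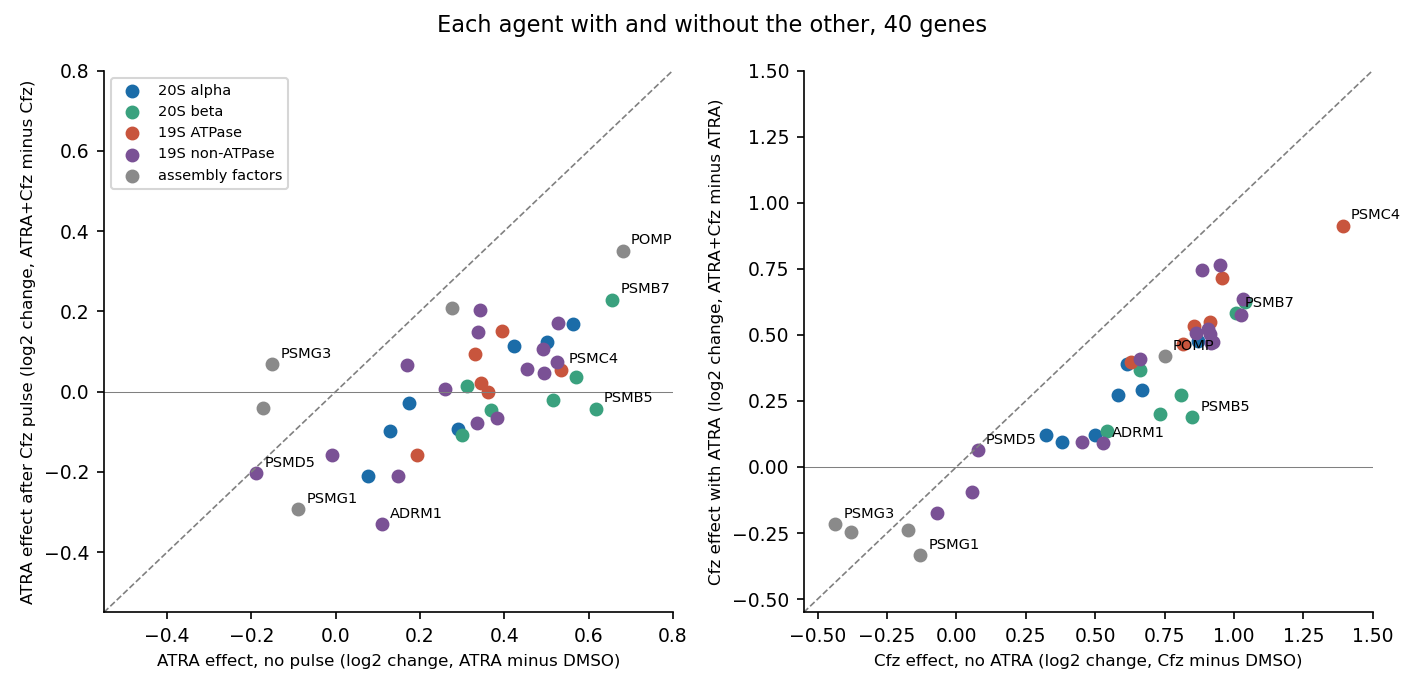
Left, the ATRA effect without the pulse (x axis, log2 change) against that after it (y axis); right, the Cfz effect without ATRA (x) against that with ATRA (y). Each point is 1 of the 40 genes, coloured by class, and the dashed line marks equal effects. On the y axis 34 genes (left) and 36 (right) have the smaller size, and the share over all genes was not computed.

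The interaction, the ATRA effect after the pulse minus that without it, tests whether the log2 changes of the 2 agents add up. For each gene it equals the Cfz effect with ATRA minus that without ATRA. The smaller effects described above and the interaction are therefore not separate results. The interaction was below 0 for 38 of the 40 genes (median -0.35, against 0.01 over all genes). It was called below 0 for 20 and above 0 for 0, where 1.31% of all genes were called below 0 and 0.992% above it, and all 20 are structural subunits. By class these were 3 of 7 alpha genes, 6 of 7 beta genes, 2 of 6 ATPases, 9 of 15 non-ATPase genes and 0 of 5 assembly factors. The size was largest for PSMB5 (-0.66 ± 0.12 SE, limma adjusted p = 0.0245), PSMB6 (-0.54 ± 0.08, adjusted p = 0.0122) and PSMB4 (-0.53 ± 0.06, adjusted p = 7.4e-03), and PSMC4 had -0.48 ± 0.07 (adjusted p = 0.0148). For PSMB5 this means a rise of 0.62 with ATRA in cells without the pulse and a difference of -0.04 ± 0.11 after it. POMP, which rose further with ATRA after the pulse, had -0.33 ± 0.09 (limma adjusted p = 0.0726), and PSMD6 (-0.19) and PSMD12 (-0.14) were not called. edgeR called 20 below 0, and DESeq2 23 of the 36 genes to which it gave an adjusted p, PSMB5 not being one of these. Of all genes, edgeR called 318 and DESeq2 296 in either direction. The calls rested on each ATRA library: without ATRA 1, ATRA 2 or ATRA 3, 0, 0 and 1 of the 40 were called, where 2, 8 and 16 of all genes were. Without DMSO 1, DMSO 2 or DMSO 3, 16, 14 and 33 were called, where 240, 169 and 1986 of all genes were. The median stayed between -0.37 and -0.33 in these 6 fits, with 37 or 38 genes below 0.

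For the other genes of the pathway, the shares of all genes called higher and lower are 21.3% and 27.4% with ATRA and 7.94% and 17% with Cfz, and the medians over all genes -0.03 and -0.08. Of 16 proteasome-associated genes, 10 rose and 2 fell with ATRA (median 0.21), and 8 rose and 1 fell with Cfz (median 0.26). TXNL1, a thioredoxin-like protein that binds the 19S cap, rose by 0.41 with ATRA and 0.96 ± 0.05 (SE) with Cfz, and ZFAND5, which stimulates the 26S particle, by 0.61 and 0.84 ± 0.05. The ubiquitin shuttle UBQLN1 rose by 0.19 with ATRA and 0.63 ± 0.05 with Cfz. Of 10 genes of NFE2L1 activation, 8 rose and 0 fell with ATRA (median 0.27), and 6 rose and 0 fell with Cfz (median 0.34). NFE2L1 itself read 206, 206 and 190 FPM with DMSO, 246, 246 and 241 FPM with ATRA, 261 FPM with Cfz and 344 FPM with ATRA+Cfz. Every ATRA library lay above every DMSO library, and both carfilzomib libraries lay above the ATRA libraries. NFE2L1 was called higher with the combination than with carfilzomib alone (0.40 ± 0.07 SE, limma adjusted p = 1.0e-03). Its interaction was 0.11 ± 0.08 (limma adjusted p = 0.503). UFD1 (0.38 with ATRA and 1.14 ± 0.06 with Cfz), NPLOC4 (0.43 and 0.92 ± 0.05) and VCP (0.15 and 0.66 ± 0.06), which form the segregase that extracts ubiquitinated proteins from membranes, rose with both agents.

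Of 9 alternative subunits and activators listed, 7 were tested, of which 4 rose and 0 fell with ATRA (median 0.29), and 1 rose and 0 fell with Cfz (median -0.08). With Cfz this median is close to the -0.08 of all genes, and 1 of 7 is near the 7.94% called higher over all genes (with ATRA, 21.3%). The one that rose with Cfz was PSME4, a nuclear activator that caps the 20S core (0.66 ± 0.05 SE, limma adjusted p = 5.3e-06), which also rose with ATRA (0.36). PSME3, the nuclear member of the other activator family, had 0.11 ± 0.05 with Cfz (adjusted p = 0.128), and PSMB8, the inducible counterpart of PSMB5, -0.18 ± 0.09 (adjusted p = 0.170). PSMB8 read 44.3, 41.2 and 47.0 FPM with DMSO, 38.3, 42.6 and 42.5 FPM with ATRA, 38.9 FPM with Cfz and 30.0 FPM with ATRA+Cfz. It fell with the combination (-0.55 ± 0.09, limma adjusted p = 3.0e-04), where PSMB5 rose by 0.81 ± 0.09. The inducible subunits did not move alike. With the combination PSMB9 was called lower (-0.46 ± 0.09), but PSMB10 was not called (0.26 ± 0.11) and rose with ATRA (0.57). Of the 7 genes, 1 rose and 3 fell with ATRA+Cfz, where 20% of all genes were called higher and 30.5% lower.

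Genes both with and without the promoter core shown above rose. Among the 34 genes with a window, the median log2 change with Cfz was 0.64 for the 12 with the antioxidant response core and 0.78 for the 22 without it, and with ATRA 0.22 and 0.38. PSMC4, with the largest change with Cfz, and PSMG2, with one of the lowest, both hold the core. In PSMG2 the match lies before the gene start, but in PSMC4 and PSMD1 it lies after it (from bases 28 and 40). For the CCAAT box the medians with Cfz were 0.66 for the 18 genes with it and 0.88 for the 16 without. These medians are descriptions of the windows searched, with no test.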

How the data were processed

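Total RNA of MM.1S cells was sequenced, and the 32 samples are, per the labels, 8 libraries run on 4 lanes each. The submitters' processing notes name fastp 0.20.0, kallisto 0.46.2 and DESeq2 without a version; the sources used here do not give the build, annotation or strand setting, so genes overlapping on opposite strands may share reads. The authors deposited FPM, a CPM unit, per lane. All values (100%) were whole reads within 0.01 read. Of 24402 lines, 143 gene IDs were repeated and each ID was used once. Lanes of a library differed little beyond sampling (chi-square per degree of freedom 1.21 to 1.26) and were averaged, so each library counted once.

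Tests used limma 3.58.1 (R 4.3.3) with the trend option on log2(FPM + 0.5), a scale that understates changes of low genes, over genes with a mean of the 4 group means of at least 0.5 FPM. All 8 libraries entered 1 fit (4 residual and 7.21 prior degrees of freedom), and p-values were adjusted over 15827 genes by Benjamini-Hochberg. The labels do not say that libraries came from separate cultures, so p-values reflect the spread between these libraries alone, and this may be technical. Members and lists were chosen with earlier results of these data known. Values per library are given for the catalytic subunits, POMP, the ubiquitin receptors and deubiquitinase, and the base chaperones. They are also given for the largest and smallest Cfz change of each class and the 3 largest interactions. Of each other list, NFE2L1 and the 3 genes with the smallest p with Cfz are named. PSMB9 and PSMB10 are named beside PSMB8. Alternatives were other pseudocounts, filters and scaling, edgeR 4.0.16 (TMM) and DESeq2 1.42.0 on recovered whole reads, robust limma, a replicate block and leaving out each library. The scripts were tested on simulated data. PSMD10 also has a pseudogene in the table, at up to 0.285 FPM.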

Additional observations from a re-analysis of the deposited data

Results flagged for a closer look

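The effect of ATRA differed between cells with and without the carfilzomib pulse for 20 of the 40 genes. All 20 were called by the interaction in limma (Benjamini-Hochberg adjusted p under 0.05), each below 0 on the log2 scale. Of all genes tested, 1.31% were called below 0 and 0.992% above it. Among the alpha genes those called were PSMA1 (-0.31), PSMA6 (-0.40) and PSMA7 (-0.38). The beta genes were PSMB1 (-0.41), PSMB2 (-0.41), PSMB4 (-0.53), PSMB5 (-0.66), PSMB6 (-0.54) and PSMB7 (-0.43), and the ATPases PSMC3 (-0.35) and PSMC4 (-0.48). Of the non-ATPase genes, PSMD1 (-0.41), PSMD2 (-0.45), PSMD3 (-0.45), PSMD4 (-0.36), PSMD7 (-0.36), PSMD11 (-0.45), PSMD13 (-0.40), PSMD14 (-0.39) and ADRM1 (-0.44) were called. Without ATRA 1, ATRA 2 or ATRA 3, 0, 0 and 1 of the 40 genes were called, where 2, 8 and 16 of all genes were. Both carfilzomib groups are 1 library each, so no replicate of either pulse was measured.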

How the results depend on the processing

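The pseudocount, a filter at 2 FPM and robust limma kept the counts of called genes within 1.5 times. Without a filter, ATRA+Cfz against Cfz had 3 called lower and ATRA+Cfz against ATRA 1. With median-ratio scaling, edgeR and DESeq2, the median of the 40 genes was 0.38, 0.37 and 0.38 for ATRA, 0.81, 0.78 and 0.80 for Cfz, 0.83, 0.86 and 0.85 for ATRA+Cfz, 0.0056, 0.0533 and 0.0263 for ATRA+Cfz against Cfz, and 0.41, 0.44 and 0.42 for ATRA+Cfz against ATRA. The interaction median was -0.40 with median-ratio scaling and -0.38 with DESeq2. Genes called lower with ATRA numbered 1, 1 and 0, and with Cfz 0 by DESeq2. For ATRA+Cfz against ATRA 1 was called lower with each of the 3. In ATRA+Cfz against Cfz edgeR called 7 higher and 1 lower, and DESeq2 2 and 1, where they called 4699 and 3118 of all genes. Over all genes edgeR on whole reads called 7748 with ATRA and 3556 with Cfz. Values near 0 that changed sign were PSMD9 with ATRA (0.0278, 0.0247 and 0.0321), PSMD10 with ATRA+Cfz (0.051, 0.0728 and 0.0651), and in ATRA+Cfz against Cfz PSMB6 (0.0133), PSMA3 (0.0048) and PSMC1 (0.0333) by edgeR, PSMC1 (0.0063) by DESeq2 and PSMD8 (-0.0060) with median-ratio scaling. The cause of these shifts was not tested.

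Leaving out each library in turn gave medians of 0.32 to 0.36 for ATRA, 0.72 to 0.76 for Cfz, 0.76 to 0.79 for ATRA+Cfz, 0.39 to 0.40 for ATRA+Cfz against ATRA and -0.37 to -0.33 for the interaction. Counts of genes called lower were 1 to 3 for ATRA, 1 to 3 for ATRA+Cfz against ATRA, 2 to 6 for ATRA+Cfz against Cfz (3 to 9 higher) and 0 to 33 for the interaction. Calls over all genes ranged from 4300 to 6284 for ATRA+Cfz against Cfz and from 2 to 1986 for the interaction. PSMD9 with ATRA ranged from -0.0302 to 0.0286 and PSMD10 with ATRA+Cfz from -0.043 to 0.0276, and PSMG4 also changed sign with ATRA+Cfz without DMSO 2 (-0.013) and in the interaction without ATRA 1 (0.0061). The replicate numbers do not pair the libraries (correlations of same-numbered deviations -0.01, 0.00 and 0.01), and not every library correlated best with its own number. A replicate block left 33 higher and 2 lower with ATRA, and 7629 genes called in all against 7699 without it. With 1 library each, the spread of Cfz and ATRA+Cfz is not measured.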
